A study of Rattus norvegicus with 38 samples.

Results

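The Cebpb and Ptpn1 window is a stretch of 2 Mb on rat chromosome 3 that begins at 156000001 in mRatBN7.2, and its members are the H3K27ac peaks whose midpoint lies inside it. The window was chosen from the study's own comparison of rotenone with vehicle, and the members inside it were selected by position alone. The list of the substantia nigra (SN) holds 121 members of 70744 peaks and the motor cortex list 124 of 80765. The deposited SN list is much longer than the number of SN peaks given in the study's text, while the motor cortex list is of nearly the stated length. The reason is not given in the sources used here. For most SN members it is not known whether they would belong to a shorter list. This bears on every SN count, width and ratio that follows. The nearest peaks left out lie just below the window, an SN peak at 155998295 to 155998522 and a motor cortex peak at 155985929 to 155986270, and above it at 158393604 to 158395087 and 158052047 to 158052444 in the same order. The first motor cortex member, at 155999952 to 156000887, straddles the lower edge.

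The 9 animals were male Lewis rats of 8 to 10 months. Rotenone, a pesticide that inhibits mitochondrial complex I, was given to 5 of them at 2.8 mg/kg, intraperitoneally each day for 21 days, and 4 received vehicle. The sample labels call the vehicle PBS while their protocol text names Miglyol, and they give the tissue of the SN samples as ventral midbrain. Both tissues were taken 24 h after the last injection. H3K27ac, an acetyl mark on histone H3 found at active promoters and enhancers, was profiled by ChIP-seq in 18 tissue samples. Of these, 16 were run on 2 sequencing lanes and 2 on 1 lane, both of the latter motor cortex samples of rotenone rats. The 4 input runs, which serve as background controls, are all labelled motor cortex. Peaks had been called once per brain region on the merged reads of rotenone and vehicle rats. Each list therefore gives positions without a height, count or p-value, and no value for a single rat, so a comparison of rotenone with vehicle, a depth per sample and an error between rats could not be derived. Differences between the SN and the motor cortex are given as positions and widths with no test. The study states that the motor cortex had more reads than the SN. A difference in read depth or input control between the regions cannot be told apart from a difference in acetylation.

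Cebpb encodes C/EBPβ, a leucine zipper transcription factor that is induced by cytokines and drives acute phase and inflammatory genes, in the brain also in glial cells. Ptpn1 encodes PTP1B, a tyrosine phosphatase that dampens insulin, leptin and JAK kinase signalling. Broad H3K27ac over a promoter and its surroundings is a usual feature of active genes, while narrower intergenic peaks often mark enhancers. The other genes around them have unlike roles. B4galt5 makes lactosylceramide, Slc9a8 is a sodium and proton exchanger of the Golgi, and Snai1 is a zinc finger repressor known from epithelial to mesenchymal transition. Ube2v1 is a ubiquitin-conjugating enzyme variant, Peds1 forms plasmalogens, Nfatc2 is a calcium-regulated transcription factor and Zfp64 is a zinc finger protein.

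Gene names come from the study's peak annotation, of which only the name and the position class are used. That annotation was printed only for peaks that the study called changed between rotenone and vehicle in the same region. Exact intervals gave a name to 12 SN members and 13 motor cortex members. The number of names per gene therefore depends on that call and does not count all peaks at a gene. A member without a name may still lie at a gene. The SN names cover 4 genes, with 5 members assigned to Cebpb, 3 to Ptpn1 and 2 each to B4galt5 and Slc9a8. The motor cortex names cover 9 genes, with 3 members assigned to Ptpn1, 2 each to Nfatc2 and Zfp64, and 1 each to B4galt5, Slc9a8, Snai1, Ube2v1, Peds1 and Cebpb. Ordered by position, the 9 genes follow each other as in the RefSeq gene table, which is of the assembly GRCr8. From B4galt5 to Zfp64 that table lists 23 protein-coding genes and 19 lncRNAs, with 1 protein-coding entry and 2 lncRNAs between Cebpb and Ptpn1.

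The 3 promoters that the annotation places under an SN member are shown here, since the peaks described at Cebpb, Ptpn1 and Slc9a8 are assigned to them. The sequences are those of RefSeq in GRCr8, from 250 bases before to 50 after the gene start, all on the forward strand, at chr3:176816755-176817054, chr3:177057483-177057782 and chr3:176566875-176567174. These positions belong to another assembly than those of the peaks. Capitals mark the motif matches described below.
Cebpb: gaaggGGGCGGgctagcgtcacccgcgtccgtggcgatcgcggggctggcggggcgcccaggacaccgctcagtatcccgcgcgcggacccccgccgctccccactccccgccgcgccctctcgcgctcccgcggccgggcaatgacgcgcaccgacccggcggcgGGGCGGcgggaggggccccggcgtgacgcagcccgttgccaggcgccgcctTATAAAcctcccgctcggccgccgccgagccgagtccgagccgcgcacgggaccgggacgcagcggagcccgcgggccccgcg
Ptpn1: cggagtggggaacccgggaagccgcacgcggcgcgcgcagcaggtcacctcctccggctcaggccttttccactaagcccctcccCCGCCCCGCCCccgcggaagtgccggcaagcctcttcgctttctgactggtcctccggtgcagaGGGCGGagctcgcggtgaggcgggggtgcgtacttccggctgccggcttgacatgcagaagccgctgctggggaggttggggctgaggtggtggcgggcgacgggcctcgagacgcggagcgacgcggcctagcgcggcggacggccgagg
Slc9a8: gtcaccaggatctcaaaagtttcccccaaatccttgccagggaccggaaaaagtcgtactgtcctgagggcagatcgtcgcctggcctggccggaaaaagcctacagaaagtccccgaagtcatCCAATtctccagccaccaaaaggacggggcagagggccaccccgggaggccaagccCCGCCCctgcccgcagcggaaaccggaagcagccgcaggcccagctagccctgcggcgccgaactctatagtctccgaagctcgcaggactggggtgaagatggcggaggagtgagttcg

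The Cebpb promoter is rich in CpG. Of its 300 bases 81% are G or C, more than in 99.3% of the 33469 RefSeq promoters of this length, whose median is 51.7%. It holds 56 CpG dinucleotides, against a median of 7. For Ptpn1 the values were 73.3% and 38 CpG, and for Slc9a8 62.3% and 20. The letters of 8 motifs were searched on both strands. The GC box GGGCGG occurred 2 times in the Cebpb promoter, 3 times in that of Ptpn1, where 2 matches overlap by 1 base, and 1 time in that of Slc9a8. A TATA match, TATAAA, began at -33 from the gene start of Cebpb, and a CCAAT match at -126 from that of Slc9a8. Among the 15 genes of the neighbourhood with a promoter in the table, 9 held the GC box, 1 TATAAA and 2 CCAAT, against 33.1%, 14.2% and 37.5% of all promoters. The promoters of Dpm1 and Mocs3 share most of their bases on opposite strands, so the 15 are not all separate sequences. No match to the C/EBP letters TTGCGCAA, the AP-1 letters TGANTCA, the CRE letters TGACGTCA, the NF-kB letters GGACTTTCC or the STAT letters TTCNNNGAA was present in those 15 sequences. These letters occur in 0.17%, 7.33%, 1.83%, 0.305% and 8.87% of all promoters.

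The peaks of both regions covered almost the same length of the window. SN members took up 209 kb of it and motor cortex members 212 kb, which is 10.4% and 10.6% of its length and a ratio of 0.987. With peaks of at least 1000 bp the order of the regions turned, at 178 kb for the SN and 177 kb for the motor cortex. Over the whole lists the SN covered fewer bases than the motor cortex, 105 against 146 Mb, a ratio of 0.718. Of the bases covered in the SN, 70.2% were also covered in the motor cortex, and 69.3% the other way round, with whole-list values of 73.3% and 52.6%. Bases in both lists amounted to 147 kb, with 62.1 kb in the SN alone and 65 kb in the motor cortex alone. By number of peaks, 140 of 1296 other 2 Mb tiles of the genome held more SN peaks than the window and 141 of 1297 held more motor cortex peaks. By summed width, 109 tiles were higher for the SN and 206 for the motor cortex.

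**Figure D1:**
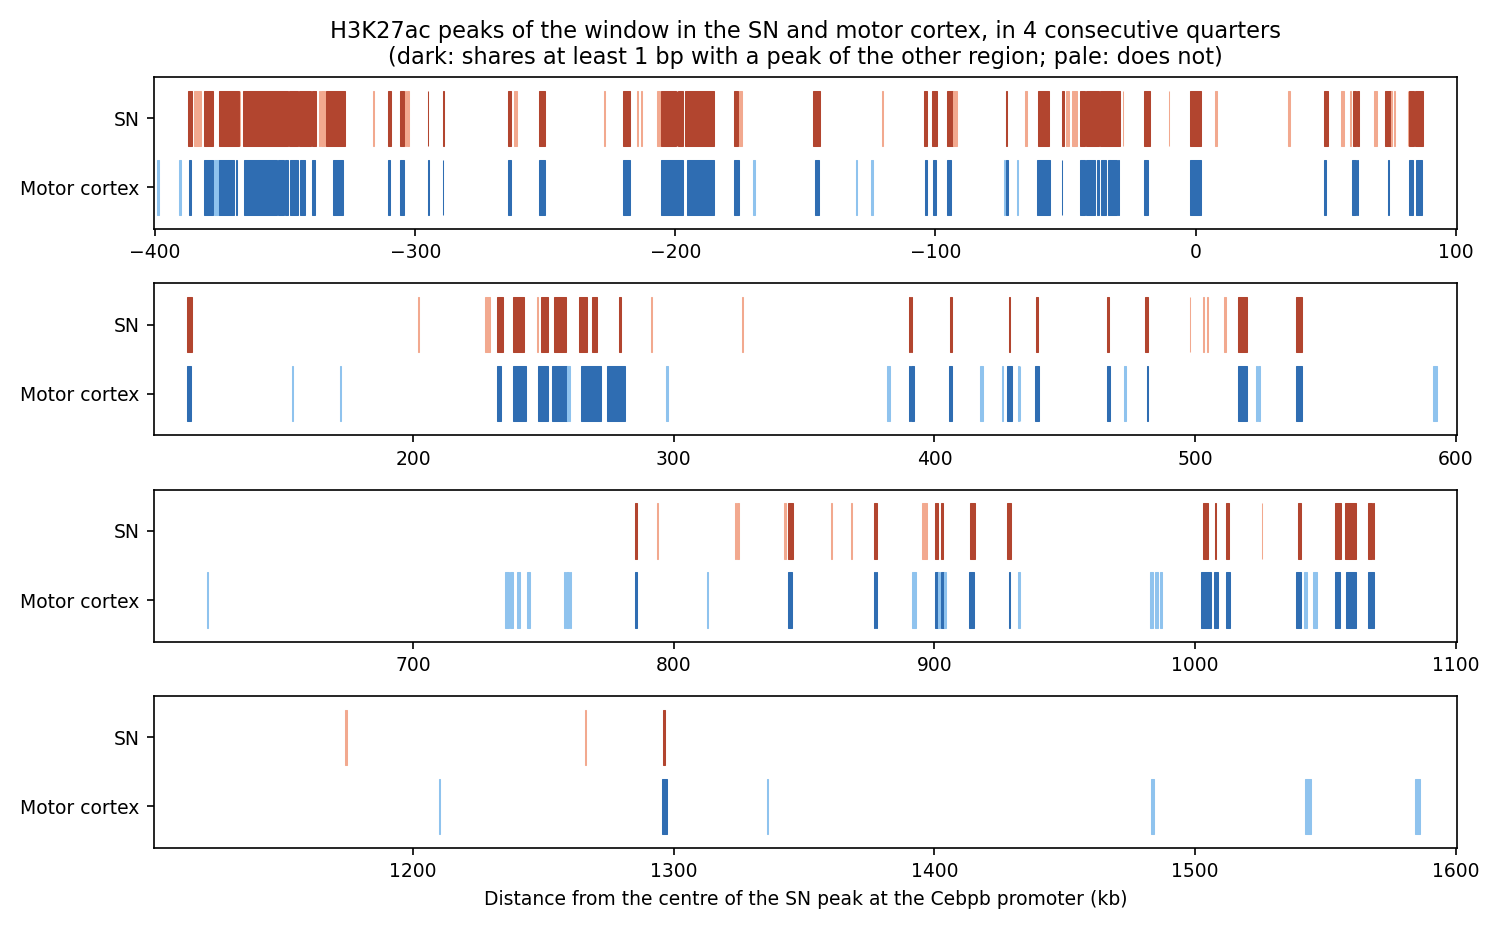
Positions of the 121 SN members and 124 motor cortex members, in 4 rows of equal length that run through the window from top to bottom, with the distance in kb from the centre of the SN peak at the Cebpb promoter on the horizontal axis. Each box is a peak drawn to scale, dark where it shares at least 1 bp with a peak of the other region and pale where it does not. Peaks are dense in the top row, and the bottom row holds 3 SN peaks.

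An overlap of at least 1 bp with the other region was found for 74 of the 121 SN members, or 61.2% (95% Wilson interval 52.3% to 69.4%), against 65.3% of the whole SN list. In the motor cortex 77 of 124 members overlapped, or 62.1% (53.3% to 70.2%), against 55.1% of its list. The intervals cover counting error only. Each list had 47 members without a partner. The share of each whole list lies inside the interval of its members. The order of the regions was not stable, with the SN share the higher one under a reciprocal overlap of 50% (41.3% and 40.3%), for peaks up to 1 kb apart (68.6% and 66.1%) and for peaks of at least 1000 bp (66.1% and 62.1%). Most overlapping members had a single partner, 67 for the SN and 73 for the motor cortex, while 7 SN members and 4 motor cortex members overlapped more than 1.

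Members with a partner were wider. The median width of those with one was 1739 bp for the SN and 1501 bp for the motor cortex, against 485 and 738 bp for those without. In the whole lists the same medians are 1362 and 1589 bp, against 572 and 915 bp. The direction is thus not particular to the window, and a wider peak meets a 1 bp overlap more easily. Over all members the medians were 1042 bp (quartiles 482 and 2120 bp) and 1096.5 bp (620.25 and 1835 bp), where the whole lists have 994 and 1245 bp. Among peaks of at least 1000 bp the SN median was the larger one, 2113.5 against 1761 bp. The narrowest SN member measured 176 bp and the widest 17521 bp, and the motor cortex members lay between 227 and 12608 bp. Narrow calls under 500 bp made up 27.3% of the SN members and 18.5% of the motor cortex members, against 22.4% and 13.1% of the lists.

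**Figure D2:**
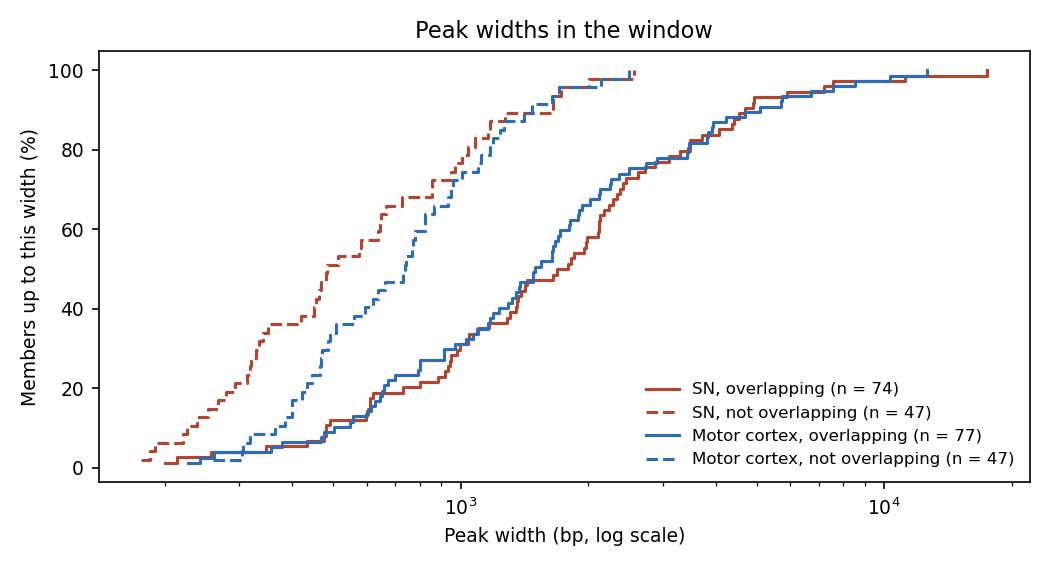
Cumulative share of members (vertical axis, in percent) up to a given peak width (horizontal axis, in bp on a log scale), with solid lines for members that overlap a peak of the other region and dashed lines for the rest. The 47 SN members without a partner lie furthest to the left, with a median of 485 bp, and the solid lines of both regions run close together.

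The peaks were concentrated in the lower 1 Mb, which contains Cebpb and Ptpn1, and more so in the SN. It held 95 of the 121 SN members (78.5%) and 85.6% of the SN bases, against 82 of 124 members (66.1%) and 76.6% of the bases in the motor cortex. In kb, the SN had 179 in the lower and 30.2 in the upper part, and the motor cortex 162 and 49.6. The share of SN members with a partner was 61.1% (Wilson interval 51% to 70.2%) in the lower 1 Mb and 61.5% (42.5% to 77.6%) in the upper. For the motor cortex it was 74.4% (64% to 82.6%) and 38.1% (25% to 53.2%). These intervals cover counting error only. Peaks of a pooled list are not independent replicates, so no contrast between the parts is read from them. Of the 47 motor cortex members without a partner, 26 lay in the upper 1 Mb, among 42 members there. The SN had 10 such members among its 26 there. Over the whole lists 44.9% of the motor cortex peaks and 34.7% of the SN peaks lack a partner.

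**Figure D3:**
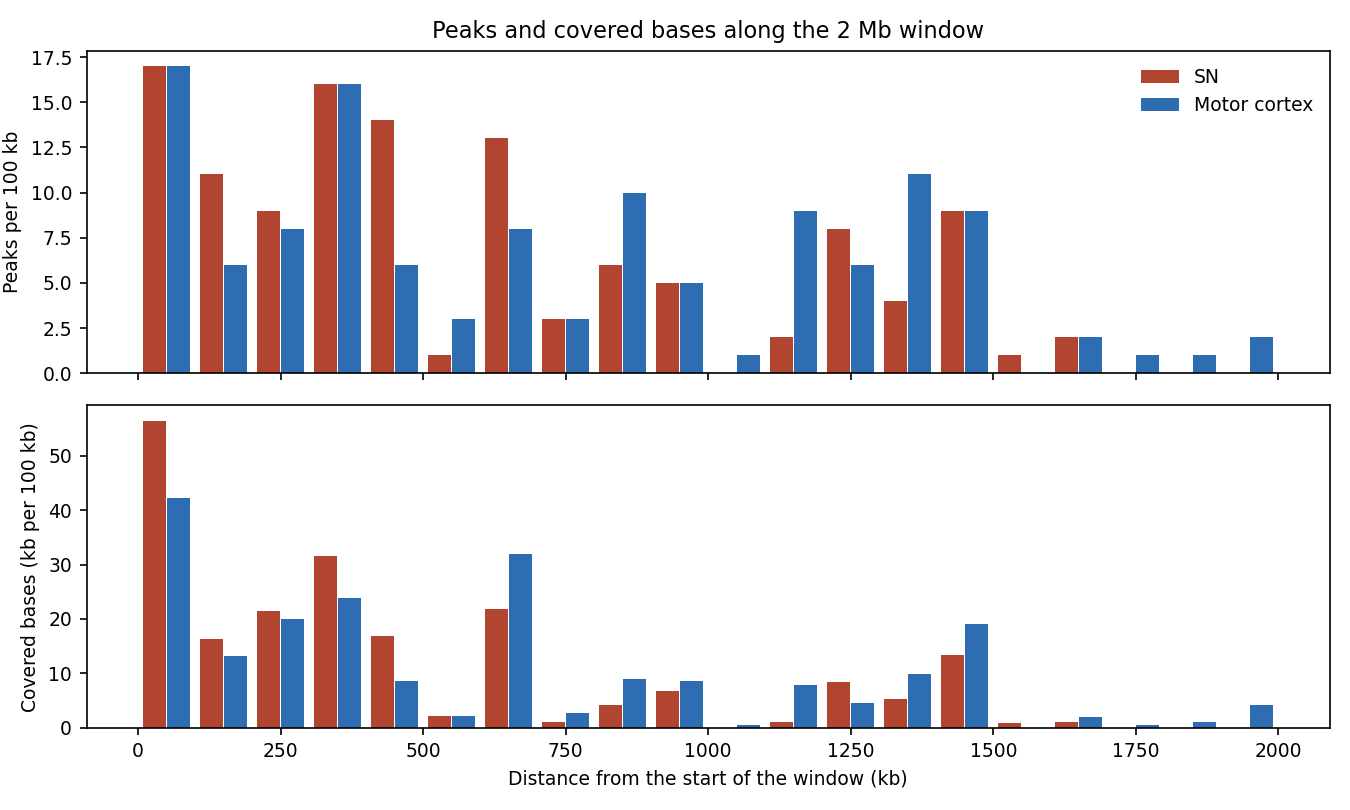
Number of members (upper panel) and covered bases in kb (lower panel) in each 100 kb of the window, with the distance from its start in kb on the horizontal axis and a bar per region. In the number of peaks the SN bar is the higher one in the fifth bin, with 14 against 6, and the motor cortex bar in the twelfth, with 9 against 2.

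At the lower end, around B4galt5, the SN was covered more widely. Peaks of either region no more than 20 kb apart form a cluster from 155999952 to 156110529, with 19 members in each region that sum to 57.2 kb (SN) and 42.8 kb (motor cortex). It contains the widest member of each list. The SN peak from 156033135 to 156050655 spans 17521 bp, wider than 99.8% of the SN list. Under it the motor cortex had 3 separate peaks of 12608, 2361 and 1501 bp, the first of them from 156033693 to 156046300. A similar break occurred at 156024113 to 156031695, where an SN peak of 7583 bp met motor cortex peaks of 5719 and 503 bp. The SN peak from 156065278 to 156072475 measured 7198 bp and its partner 3840 bp.

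The members assigned to B4galt5 were smaller. In the SN they span 156012227 to 156013582, annotated as distal intergenic, and 156018219 to 156021706, annotated to the 3' UTR. The first was 1356 bp wide against 661 bp for its motor cortex partner, and the second 3488 bp with 98.1% of its bases shared. The motor cortex member of this gene, from 156051360 to 156053377, lay wholly inside an SN peak. The widest SN member without a partner, 2567 bp from 156014432 to 156016998, lay between the pair of named SN peaks. In the motor cortex the second widest one, 2142 bp from 156021883 to 156024024, lay just beyond them.

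At Slc9a8 the peak borders of both regions lay close together. Its promoter peak ran from 156146961 to 156149306 in the SN (2346 bp), and from 156146932 to 156149427 in the motor cortex (2496 bp), so that the borders differed by 29 and 121 bp. Of the distal members assigned to it, the SN peak at 156093363 to 156095185 shared 65.4% of its 1823 bp. The motor cortex peak at 156104149 to 156104526 was 378 bp wide, narrower than all but 5.98% of its list, and shared 53.2% of its bases.

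Between Slc9a8 and Snai1, where the gene table places Spata2 and Rnf114, a pair of wide domains stood side by side. The upper one spans 156203007 to 156214189 in the SN (11183 bp) and 156204016 to 156214353 in the motor cortex (10338 bp). The lower one was whole in the motor cortex, from 156193876 to 156202406 (8531 bp), and split in the SN into peaks of 5909, 258 and 2136 bp. No member there has a name.

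From Snai1 to Cebpb both lists were dense, with 21 members each in a cluster from 156252539 to 156407539, summing to 39.1 kb (SN) and 30.1 kb (motor cortex). The motor cortex peak annotated just downstream of Snai1, from 156253192 to 156254838 (1647 bp), lay wholly under an SN peak, as did the one assigned to Ube2v1, a narrow call of 242 bp at 156303839 to 156304080. The intronic Peds1 peak of the motor cortex, 3432 bp from 156357237 to 156360668, shared 99.5% of its bases with an SN peak of 4932 bp. Next to it the SN peak from 156365529 to 156370213, 4685 bp wide, covered 3 motor cortex peaks of 699, 2741 and 475 bp.

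The Cebpb promoter peak was nearly identical in both regions. It ran from 156397385 to 156401463 in the SN, a width of 4079 bp, and lay wholly inside the motor cortex peak from 156397334 to 156401571, a width of 4238 bp. The borders differed by 51 bp at the start and 108 bp at the end. Both peaks were wide for their list, above 94.6% and 92.7% of its peaks.

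The stretch beyond it held more peaks and more covered bases in the SN. Over the 236 kb from 156401572 to 156637685, between the promoter peaks of Cebpb and Ptpn1, the SN had 18 members with a summed width of 21.8 kb and the motor cortex 10 with 10.7 kb, a ratio of 2.04. A partner was lacking for 10 of the 18 SN members and 2 of the 10 motor cortex members, where 34.7% and 44.9% of the whole lists lack one. The stretch was chosen after its values had been seen, so nothing particular to it is read from these counts. Within the 100 kb above 156.4 Mb there were 14 SN and 6 motor cortex members, and all 6 of the latter overlapped an SN peak.

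The annotation assigns 4 distal SN members of this stretch to Cebpb. The first, from 156459983 to 156461146, was 1164 bp wide and shared 94.4% of its bases with a motor cortex peak that was wider, 1545 bp. The second, 1079 bp from 156467943 to 156469021, had no partner. At the third, from 156472452 to 156474404, the SN peak of 1953 bp exceeded the motor cortex peak of 615 bp by 3.18 times. The fourth, from 156483627 to 156486738, measured 3112 bp against 2136 bp. Of the 3 peaks with a partner, the SN peak was thus the wider one in 2.

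A pair of distal SN members nearer to Ptpn1 is assigned to that gene. The peak from 156627093 to 156628814, 1722 bp wide, is among the 3 widest SN members without a partner. Its neighbour from 156631757 to 156634043 was 2287 bp wide, with a partner of 1484 bp whose start differed by 18 bp. The motor cortex had its own distal member assigned to Ptpn1, 433 bp from 156571192 to 156571624, in a cluster of 2 narrow peaks without SN members.

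**Figure D4:**
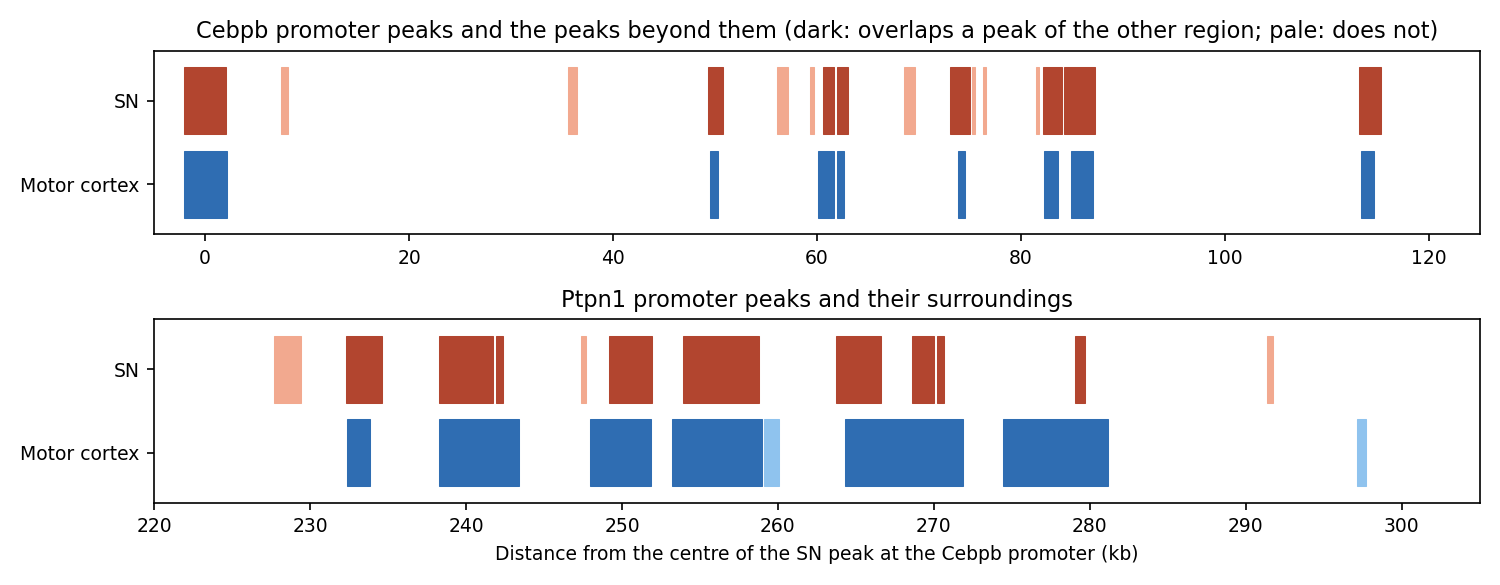
Peaks of both regions from the Cebpb promoter on (upper panel) and around Ptpn1 (lower panel), drawn to scale against the distance in kb from the centre of the SN peak at the Cebpb promoter, dark where a peak overlaps one of the other region and pale where it does not. The Cebpb promoter boxes of both regions match in width, pale SN boxes lie beyond them, and the motor cortex boxes in the lower panel are fewer and wider.

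At Ptpn1 itself the order turned, and the motor cortex peaks were wider. The SN promoter peak ran from 156637686 to 156641168 (3483 bp), followed by a separate peak of 493 bp. A single motor cortex peak from 156637715 to 156642801 (5087 bp) overlapped both. It began within 29 bp of the SN promoter peak and ended 1633 bp beyond it. From these promoter peaks to the end of their cluster at 156697102, the motor cortex had 7 members with a median width of 5087 bp and a sum of 30.5 kb. The SN had 10 members with a median of 999.5 bp and a sum of 17.6 kb, so the sum was 1.74 times as large in the motor cortex. Over the whole lists the motor cortex also covered more bases, 146 against 105 Mb.

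The motor cortex members named for the body of Ptpn1 were among the widest of the window. The peak annotated to an intron, from 156652648 to 156658395, was 5748 bp wide and its SN partner 4905 bp. The peak annotated to an exon, from 156673846 to 156680557, was 6712 bp wide. The SN had 1 peak of 611 bp under it, so 9.1% of its bases were shared and the widths differed 11-fold. Between them lay a motor cortex peak from 156663749 to 156671314, 7566 bp wide, over 3 SN peaks of 2870, 1388 and 435 bp.

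Widths were also compared in the pairs that overlap one to one, which include peaks of the stretches described above. The window held 57 such pairs, of which the SN peak was wider in 29 and the motor cortex peak in 28, with a median log2 ratio of 0.01. Over both whole lists the SN peak was wider in 41.7% of 31838 pairs, with a median log2 ratio of -0.08. Below the SN promoter peak of Ptpn1 the SN peak was wider in 22 of 32 pairs, with a median log2 ratio of 0.45. From there on it was wider in 7 of 25, with a median of -0.40. The dividing point was set after the widths had been seen, so these are descriptions. Split at the middle of the window instead, the difference was smaller. The SN peak was then wider in 23 of 44 pairs of the lower 1 Mb, with a median log2 ratio of 0.02. In the upper 1 Mb it was wider in 6 of 13, with a median of -0.27.

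**Figure D5:**
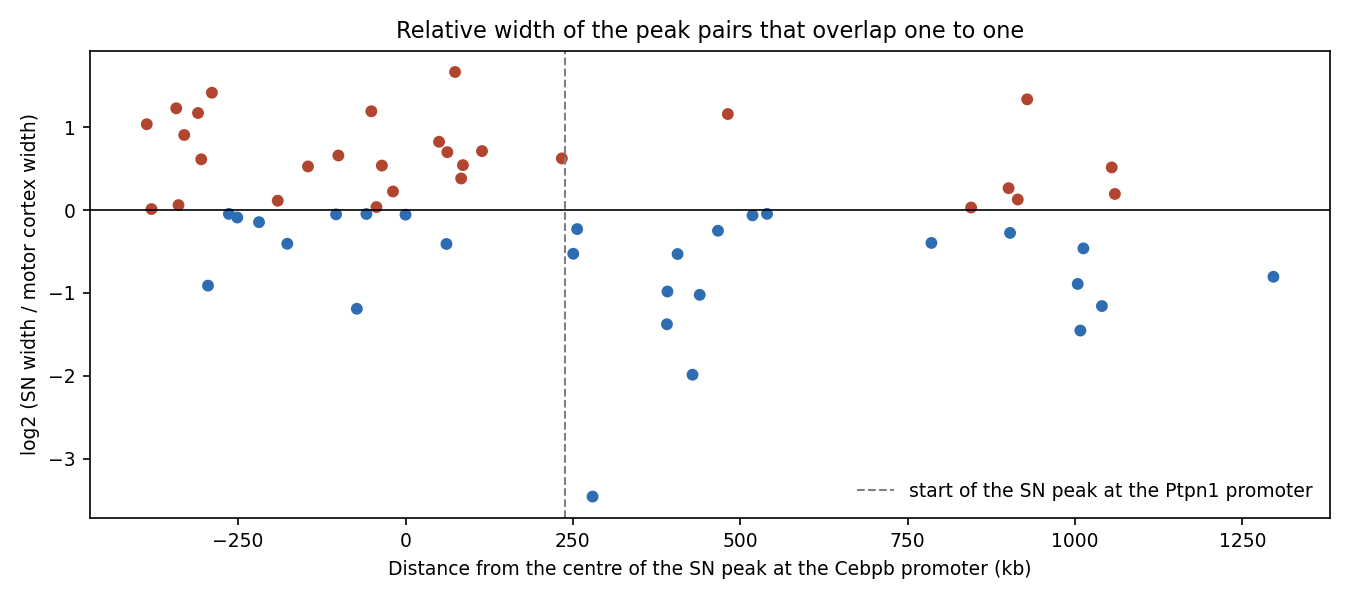
Log2 ratio of the SN width to the motor cortex width (vertical axis) for the 57 one-to-one pairs, against the distance in kb from the centre of the SN peak at the Cebpb promoter, with red points where the SN peak is wider and blue points where the motor cortex peak is wider. To the left of the dashed line at the Ptpn1 promoter 22 of 32 points lie above 0, and to the right 7 of 25.

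Beyond Ptpn1 the motor cortex had more peaks and more covered bases, as it has over the whole lists (80765 against 70744 peaks and 146 against 105 Mb). Over the remaining 1303 kb the motor cortex had 60 members summing to 69.8 kb and the SN 40 summing to 42.2 kb, with 25 members of each overlapping. The whole-list shares of overlapping peaks are 55.1% for the motor cortex and 65.3% for the SN. The 25 of 40 SN members are close to the share of their list and the 25 of 60 motor cortex members are below theirs. The border of this stretch was set after its values had been seen, so nothing particular to it is read from these counts. The longest gap between successive SN members, 244 kb from 156940485 to 157184606, contained 10 motor cortex members with a sum of 9.21 kb. Of these, 8 stood together from 157134843 to 157160121, with widths from 401 to 1477 bp, and none had a partner. One of them, 1236 bp from 157158114 to 157159349, is assigned to Nfatc2.

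Both regions had peaks again in a cluster from 157184421 to 157332299, with 14 members each, of which 7 SN and 8 motor cortex members overlapped. Over the whole lists 65.3% of the SN peaks and 55.1% of the motor cortex peaks overlap. The SN sum was the larger one there, 14.8 against 12.1 kb. It includes the second widest SN member without a partner, 2006 bp from 157294547 to 157296552. In the next cluster, from 157382114 to 157468165, the motor cortex had 13 members and 22.3 kb against 9 and 13.4 kb in the SN. Here 8 of the 9 SN members overlapped a motor cortex peak, and 6 of the 13 motor cortex members had no partner. The latter is near the 44.9% of the motor cortex list without one. With so few members, nothing particular to these clusters is read from the counts. Among the 6 motor cortex members without a partner was the other member assigned to Nfatc2, 766 bp from 157382580 to 157383345.

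The far end of the window held few peaks. The longest stretches empty in both lists were 147 kb from 157735557 to 157882689, 114 kb from 157020691 to 157134842 and 105 kb from 157468166 to 157573085. The last SN member, 942 bp from 157695289 to 157696230, overlapped a motor cortex peak, and the next SN peak began 697 kb further on. Inside the window the motor cortex had 4 more members after it, summing to 5.79 kb. A pair of these is assigned to Zfp64, the first 1117 bp from 157882690 to 157883806 and the other 2492 bp from 157941501 to 157943992, which is the widest motor cortex member without a partner. The third widest, 1709 bp from 157983910 to 157985618, is the last member of that list.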

How the data were processed

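H3K27ac ChIP-seq reads of the SN and motor cortex had been trimmed with Trim Galore 0.6.7, aligned to mRatBN7.2 with Bowtie2 2.4.4 and freed of duplicates with Picard 2.6.0, per the labels and the study's methods. For each region the authors combined all rats before peak calling in MACS2 2.2.7.1, with input as the control, so the deposited lists hold 1 set of positions per region. All input runs carry motor cortex labels, and it is not stated which input served for the SN. The filter behind the gaps in the peak numbers is not given in the sources used here.

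Starts were read as BED positions and are printed counted from 1. Overlaps and merged peaks were computed with bedtools 2.31.1, intervals with scipy 1.17.1, and tables with pandas 2.3.3 under Python 3.11.15. Simulated data of 4000 peaks were used to test how overlaps, covered bases and members were found, and every planted value was recovered. The simulated lists held no peaks close enough to merge and no pairs within 1 kb that did not overlap. Merging and the search for peaks up to 1 kb apart were therefore not tested by them. Tiles of 2 Mb started at even Mb on the numbered chromosomes and X, without the last of each chromosome. No test was run, because no value per rat was at hand. Columns of the authors' test results in the supplement hold fold changes and p-values and were not used. The gene name and position class printed beside them were read from a text copy of page images, and genes were limited to 23 names of the neighbourhood, of which 22 are in the RefSeq table. Peaks named in the text are those with a gene name, the 5 widest and 3 widest without a partner in each list, the first and last, those with 3 partners and the 3 longest gaps, and the partners of these. The cluster of 8 motor cortex peaks near Nfatc2 and the stretches bounded by promoter peaks were chosen after their values were seen. The window, its genes and these rules were chosen with earlier results of these data known. Sequences of the peaks were not analysed here.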

Additional observations from a re-analysis of the deposited data

How the results depend on the processing

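Of 35 alternative values, 28 stayed within the interval of the reported share or within 1.5 times the reported value. The order of the SN and the motor cortex turned for values that lay close together. Covered bases went from 209 and 212 kb to 178 and 177 kb with peaks of at least 1000 bp, and the shares with a partner from 61.2% and 62.1% to 68.6% and 66.1% for peaks up to 1 kb apart and to 66.1% and 62.1% for peaks of at least 1000 bp. Dropping peaks narrower than 1000 bp left 62 SN and 66 motor cortex members and raised their median widths to 2113.5 and 1761 bp, since the narrower peaks are removed by construction, so that the SN median became the larger one. Requiring a reciprocal overlap of 50% lowered the shares of members with a partner to 41.3% for the SN and 40.3% for the motor cortex, which also turned their order. Joining members up to 10 kb apart instead of 20 kb gave 46 clusters instead of 25. The ratio of summed SN to motor cortex width from Cebpb to Ptpn1 was 2.04 as reported, 2.39 with peaks of at least 1000 bp and 2.22 after merging across 1 kb. For the Ptpn1 cluster it was 0.576, 0.529 and 0.586. These 2 ratios, the dividing point at Ptpn1 and the cluster distance were chosen after seeing the data. No paired analysis was possible because the lists pool all rats of a region, and for the same reason no replicate could be left out. With no score in the lists, a stricter peak threshold could be imitated only by width.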

Other observations

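The peak caller numbers its peaks along the genome, and the numbers left in the lists show how much of the original calls was kept. In the window, 121 of 231 successive SN numbers are present (52.4%), against 47.6% of all SN numbers. In the motor cortex 124 of 213 are present, 58.2%, the same share as over its whole list. The numbers missing from the window, 110 for the SN and 89 for the motor cortex, belong to calls whose positions were not analysed here.

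The neighbouring 2 Mb below it held more peaks than the window, with 182 SN peaks covering 362 kb and 177 motor cortex peaks covering 484 kb. In the 2 Mb above it there were 65 SN peaks covering 91.1 kb and 57 motor cortex peaks covering 77.9 kb. The share of SN peaks with a motor cortex partner was 74.2% below the window, 61.2% in it and 53.8% above it. The motor cortex shares were 65%, 62.1% and 63.2%. Over the whole lists the shares are 65.3% for the SN and 55.1% for the motor cortex. A trend along the chromosome was not tested and is not read from these shares.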
